A study of Mus musculus with 18 samples.

Results

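The interferon regulatory factors examined here were the 8 genes *Irf1*, *Irf2*, *Irf3*, *Irf4*, *Irf5*, *Irf7*, *Irf8* and *Irf9*, found by gene symbol among 20066 gene names in the expression table of the differentiation stages and among 20495 rows in the table of reprogrammed fibroblasts. All 8 were present in both tables. The stage table covered 5 cell populations made from a strain 129 mouse embryonic stem cell (ESC) line that carries a GFP reporter in the Brachyury gene and was grown on fibroblasts: undifferentiated ESCs, mesoderm (MES, Bry.GFP+ and FLK1-), hemangioblasts (HB, Bry.GFP+ and FLK1+), CD41+ hematopoietic progenitors (HP) and CD11b+ macrophages (MAC). For each stage 2 samples were sequenced, and the authors deposited 1 combined value. The hemogenic endothelium, which lies between HB and HP, is not analysed here. The second table covered strain 129 mouse embryonic fibroblasts (MEFs), either untreated (uFIB) or given Scl and Lmo2 (SL), Scl, Fli1, Gata2 and Lmo2 (SFGL) or Fli1, Gata2 and Lmo2 (FGL), with 1 library for each condition at day 12 and at day 21. Scl is the protein of the *Tal1* gene. The MEFs were wild type or carried a doxycycline-inducible Tal1 transgene, and the labels do not say which of them made up a given library.

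Interferon regulatory factors (IRFs) are transcription factors that share a DNA-binding domain which recognizes GAAA repeats. IRF3, IRF5 and IRF7 are activated by kinases downstream of pattern recognition receptors and turn on interferon genes, and IRF9 joins STAT2 in the complex through which type I interferon switches on its targets. IRF1 activates and IRF2 mostly represses overlapping interferon response genes, whereas IRF8 and IRF4 bind DNA together with the ETS factor PU.1 and are known for their roles in macrophages, dendritic cells and B cells.

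The promoters of *Irf1*, *Irf7* and *Irf8*, on whose courses the results turn, and of *Irf2*, which held the only ISRE and EICE matches among the members, are shown as the 250 bases upstream of the RefSeq transcription start on GRCm38.p6, written 5′ to 3′ on the strand of the gene. Capitals mark matches to any of 4 motifs searched on both strands: the interferon-stimulated response element (ISRE, a repeat of GAAA with any 2 bases between them), the STAT dimer site (GAS, TTCNNNGAA), the composite site of PU.1 and IRF (EICE, GGAA and GAAA with any 2 bases between them), and TATAAA. *Irf1* and *Irf8* have a further RefSeq start, which is not shown.
Irf1, chr11:53769764-53770013, plus strand: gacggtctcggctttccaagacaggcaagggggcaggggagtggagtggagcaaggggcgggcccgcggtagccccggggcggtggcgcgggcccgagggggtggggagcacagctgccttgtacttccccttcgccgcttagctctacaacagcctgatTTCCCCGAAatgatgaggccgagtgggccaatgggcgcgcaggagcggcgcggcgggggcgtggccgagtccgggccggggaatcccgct
Irf2, chr8:46739495-46739744, plus strand: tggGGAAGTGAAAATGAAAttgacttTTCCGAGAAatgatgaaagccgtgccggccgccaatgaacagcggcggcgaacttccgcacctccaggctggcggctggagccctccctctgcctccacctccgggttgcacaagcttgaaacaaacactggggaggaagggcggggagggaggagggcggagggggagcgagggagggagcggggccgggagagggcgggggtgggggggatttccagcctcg
Irf7, chr7:141266425-141266674, minus strand: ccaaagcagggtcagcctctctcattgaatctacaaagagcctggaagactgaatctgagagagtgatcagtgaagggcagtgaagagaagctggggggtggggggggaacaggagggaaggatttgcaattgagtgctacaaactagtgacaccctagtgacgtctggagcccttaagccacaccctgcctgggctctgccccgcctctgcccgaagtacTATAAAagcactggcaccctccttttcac
Irf8, chr8:120736108-120736357, plus strand: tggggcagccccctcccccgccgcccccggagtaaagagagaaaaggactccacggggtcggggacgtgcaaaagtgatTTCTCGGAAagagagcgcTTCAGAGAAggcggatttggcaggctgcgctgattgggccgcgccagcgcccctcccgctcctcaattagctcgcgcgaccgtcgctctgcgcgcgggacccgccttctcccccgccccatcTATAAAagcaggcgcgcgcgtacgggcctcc
The *Irf1* window held a GAS match that began 90 bases before the start, and the *Irf8* window held a pair of GAS matches that began 171 and 153 bases before it. In *Irf2* the EICE match (247 bases before the start) and the ISRE match (241 bases) overlapped, followed by a GAS match at 224 bases. TATAAA lay 29 bases before the start of *Irf7*, 31 before that of *Irf8* and 26 before that of *Irf4*. All 8 genes were matched to RefSeq by symbol, giving 11 windows, and the windows of *Irf3*, *Irf5* and *Irf9* held none of the 4 letter patterns. Among 32851 promoter windows of the same length, 2.98% held the ISRE letters, 7.02% the GAS letters, 2.3% the EICE letters and 12.4% TATAAA. A match of letters is a description and does not show that a factor binds there.

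Expression is given as FPKM, the number of fragments scaled to transcript length and library size, so that levels of different genes can be compared within a table. The 2 tables were normalised separately, and levels were compared only within each. The stage table held 1 value per stage, so that its values carry no error and its differences were not tested. The MEF table held 1 library per condition and day, and a test was possible there only by taking both days together. The deposited tables do not give the read depth behind a value. In each table a difference is the difference on log2(FPKM + 1), and it was called where it reached 1 in size among genes with at least 1 FPKM in 1 of the compared samples. On this scale the change of low genes is understated. Checked against markers of each stage, 4 of 4 ESC markers were highest in ESC, 2 of 3 mesoderm markers in MES, 2 of 3 hemangioblast markers in HB, 3 of 4 blood progenitor markers in HP and 6 of 6 macrophage markers in MAC. In the MEFs *Lmo2* was at 36.2 FPKM or more in every treated library, but the library labelled FGL at day 12 held *Tal1* at 7.04 FPKM against 0.0414 in uFIB, and the library labelled FGL at day 21 held *Fli1* at 3.35 FPKM against 3.02 in uFIB, both of which run against the label. FGL therefore stands here for the label only. Dendritic and B cell markers give the background for IRF8 and IRF4 outside macrophages: *Flt3*, *Siglech* and *Pax5* stayed below 0.2 FPKM in all stages and libraries and *Cd79a* below 0.6, *Itgax* reached 142.7 FPKM in MAC and less than 0.3 elsewhere, and *Zbtb46* lay between 0.937 and 8.01 FPKM throughout. As these are bulk samples, fewer expressing cells and less RNA per cell cannot be told apart.

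The summed FPKM of the IRF family was lowest in the hemangioblast and highest in macrophages. Added up, the 8 genes came to 25.9, 52.9, 19.0, 23.6 and 299.7 FPKM along the order ESC, MES, HB, HP, MAC. Up to the hemangioblast *Irf1* alone made up 61.9% of this sum in ESC, 87.4% in MES and 64.2% in HB, and only 3 members, *Irf1*, *Irf3* and *Irf9*, reached 1 FPKM. In HP 7 members reached 1 FPKM and none dominated, the highest being *Irf9* with 22.9% of the sum. In MAC the same number did so, and *Irf8* was the highest with 42.4%. The median of the 8 genes was lowest in MES, at 0.531, 0.401, 0.509, 3.19 and 29.7 FPKM from ESC to MAC. Over all genes the FPKM also summed to more in MAC (381686) than in HP (185803).

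**Figure D1:**
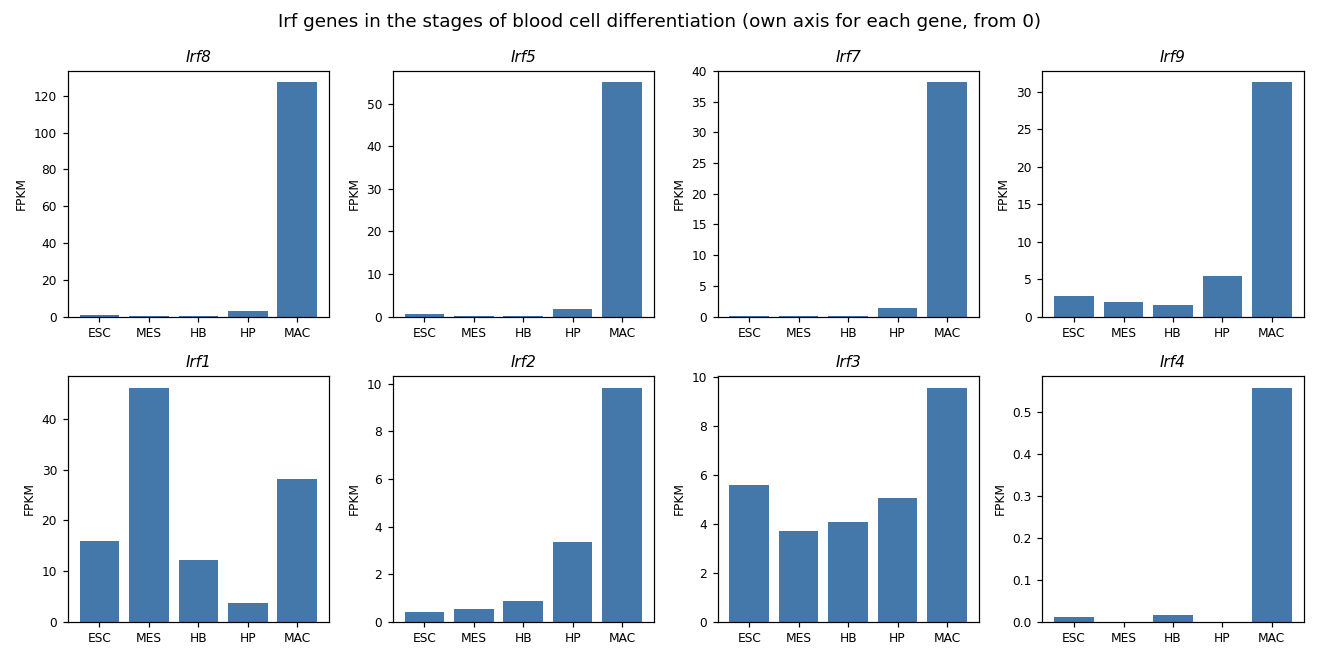
FPKM of each Irf gene (bars, authors' combined value, own vertical axis from 0) in ESC, MES, HB, HP and MAC. *Irf8*, *Irf5*, *Irf7* and *Irf9* were highest in MAC after low values up to HB, and *Irf1* was highest in MES, at 46.2 FPKM.

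*Irf8* on chromosome 8 (120736376 to 120756692, plus strand, GRCm38), which encodes the partner of PU.1 in macrophage and dendritic cell development, was at 0.579, 0.277 and 0.0919 FPKM in ESC, MES and HB, at 3.0 FPKM in HP and at 127.2 FPKM in MAC. It was thus lowest in the hemangioblast, rose 32.6-fold in FPKM to the progenitor and a further 42.4-fold to the macrophage. *Irf5* on chromosome 6, a factor downstream of Toll-like receptors that drives inflammatory cytokines, was at 0.483, 0.165, 0.162, 1.73 and 55.0 FPKM in the same order. *Irf7* on chromosome 7, the factor that amplifies type I interferon production, was at 0.0174, 0.0611, 0.0143, 1.36 and 38.1 FPKM. These 3 genes stayed below 0.6 FPKM in ESC, MES and HB, where FPKM values rest on few fragments, and of the stages used here HP was the first in which they left that range. In MAC *Irf8* exceeded 97.7% of all genes in the table, *Irf5* 93.7% and *Irf7* 90.8%.

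*Irf9* on chromosome 14, the DNA-binding subunit of the type I interferon response complex, was at 2.75, 1.93, 1.58, 5.42 and 31.2 FPKM from ESC to MAC. *Irf2* on chromosome 8 (46739745 to 46847458, plus strand) was at 0.414, 0.525, 0.855, 3.37 and 9.84 FPKM, and was the only member with a higher value at every step. *Irf3* on chromosome 7, the ubiquitous factor downstream of cytosolic nucleic acid sensors, varied least among the members above 1 FPKM, with 5.60, 3.72, 4.09, 5.06 and 9.58 FPKM in the same order. *Irf4* on chromosome 13, the factor of plasma cells and alternatively activated macrophages, was listed at 0 in MES and HP, at 0.0117 and 0.0154 FPKM in ESC and HB and at 0.557 FPKM in MAC, below the limit of 1 FPKM in all stages.

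*Irf1* on chromosome 11 (53770014 to 53778374, plus strand) followed a course of its own. Its values were 16.0 FPKM (ESC), 46.2 (MES), 12.2 (HB), 3.69 (HP) and 28.1 (MAC), and it was therefore high in mesoderm, lowest in progenitors and high again in macrophages. In MES it exceeded 96.5% of all genes in the table, against 63.7% in HP.

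At the step from ESC to MES 14.2% of 10606 genes were called, 6.94% higher in MES and 7.3% lower. *Irf1* was the only one of the 3 members tested that was called, with a difference of 1.47, and only 278 of the 10606 genes had a larger one. From MES to HB 5.83% of 10211 genes were called, 2.53% higher and 3.3% lower, and again *Irf1* was the only member, with a difference of -1.84 that lay below those of all but 76 genes. Thus the mesoderm value of *Irf1* stood apart on both sides, whereas *Irf3* and *Irf9*, the other members tested, moved by less than 0.5 in size at both steps. *Irf2*, *Irf4*, *Irf5*, *Irf7* and *Irf8* were below 1 FPKM in these stages, so that they could not be called. Their changes are understated on this scale.

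From HB to HP 17.7% of 10505 genes were called, 8.86% higher and 8.8% lower. Of the 7 members tested, 5 were called higher, namely *Irf8* (1.87), *Irf9* (1.32), *Irf2* (1.24), *Irf5* (1.23) and *Irf7* (1.22), and *Irf1* was called lower (-1.49). *Irf3* differed by 0.25, and *Irf4* stayed below 1 FPKM. The median over all 8 members, with *Irf4* included although it was not tested, was 1.22, beside -0.13 over all genes tested. Of the 5 that were higher, *Irf5* and *Irf7* reached only 1.73 and 1.36 FPKM in HP, *Irf8* 3.0 and *Irf2* 3.37, so that in progenitors these were low levels.

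From HP to MAC as many as 47.3% of 10819 genes were called, 33.4% higher and 13.9% lower, and the median gene differed by 0.45, a shift that became -0.21 when each stage was scaled to the same upper quartile. The median gene also shifted by 0.13 from MES to HB and by -0.13 from HB to HP. Of the 7 members tested, 6 were called higher in MAC and none lower: *Irf8* (5.00), *Irf5* (4.36), *Irf7* (4.05), *Irf1* (2.63), *Irf9* (2.33) and *Irf2* (1.31). Relative to the median gene the same differences were 4.55, 3.91, 3.60, 2.19, 1.88 and 0.86, and that of *Irf2* fell to 0.67 with upper quartile scaling, under the limit for a call. Only 152 of the 10819 genes had a larger difference than *Irf8*, 267 than *Irf5* and 342 than *Irf7*. In contrast, 2799 genes had a larger one than *Irf2* and 4245 a larger one than *Irf3* (0.80), which therefore lay within the bulk of all genes.

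**Figure D2:**
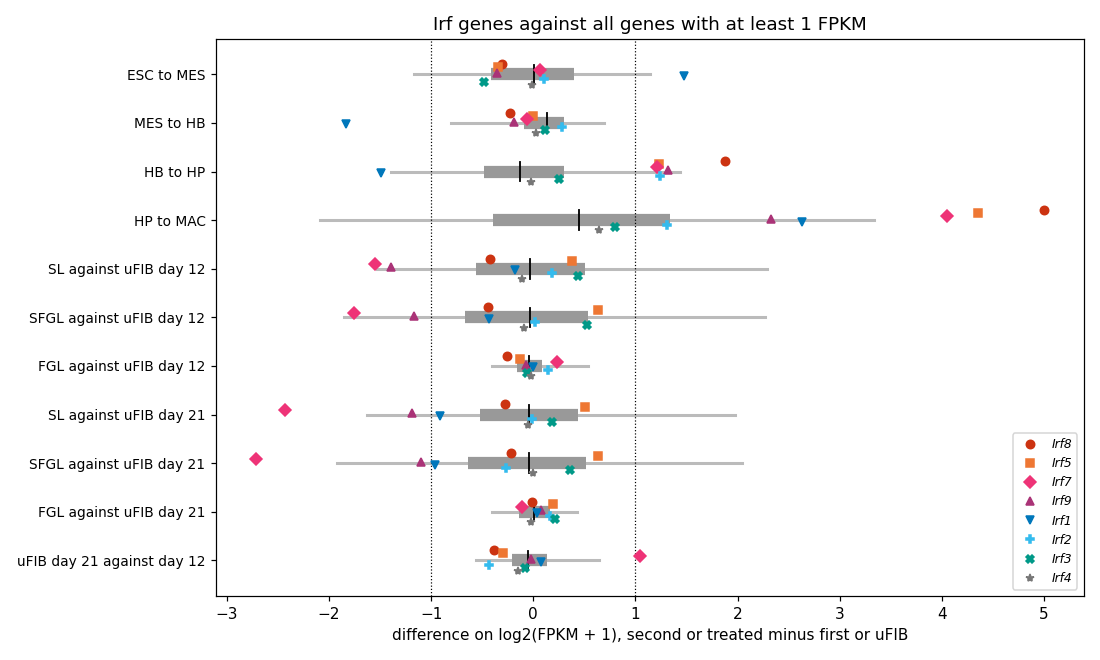
Differences on log2(FPKM + 1) of the 8 Irf genes (symbols) for the steps between stages and for the MEF libraries, over all genes with at least 1 FPKM (thick bar, percentiles 25 to 75; thin line, percentiles 5 to 95; tick, median; dotted lines, limit of 1). *Irf8*, *Irf5* and *Irf7* lie to the right of the thin line from HP to MAC, and *Irf7* lies to its left in SL and SFGL at day 21.

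For *Irf1*, *Irf5* and *Irf9* the stage table held a pair of transcription start sites each. It gives the same gene interval for both sites, so that their positions are not separated here. The share of the sites changed most in *Irf9*. The site listed as TSS5701 was at 2.24, 1.48, 1.43, 2.35 and 6.67 FPKM from ESC to MAC, and TSS5702 at 0.512, 0.453, 0.148, 3.07 and 24.6 FPKM. Thus TSS5702 supplied 18.6% of the gene's FPKM in ESC and 9.40% in HB, but 56.6% in HP and 78.7% in MAC. Most of the rise of *Irf9* from HB to HP came from this site, with a difference of 1.82 against 0.46 for the other.

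In *Irf1* the site with the larger value carried between 80.8% of the gene in MAC and 94.6% in ESC, and it showed the mesoderm peak with 15.2, 43.1 and 11.1 FPKM for ESC, MES and HB. The smaller site was likewise highest in MES, at 0.862, 3.08 and 1.15 FPKM, but was lower in ESC than in HB. In *Irf5* the smaller site was listed at values below 1e-05 FPKM up to HB and then at 0.641 FPKM in HP and 4.51 in MAC. The larger site of *Irf5* rose from 1.09 FPKM in HP to 50.5 in MAC. Taken by itself, it rose by 0.85 from HB to HP, so that the call of *Irf5* at that step needed both sites. Cufflinks divides fragments between overlapping transcripts by a model, and the shares are estimates of that model.

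**Figure D3:**
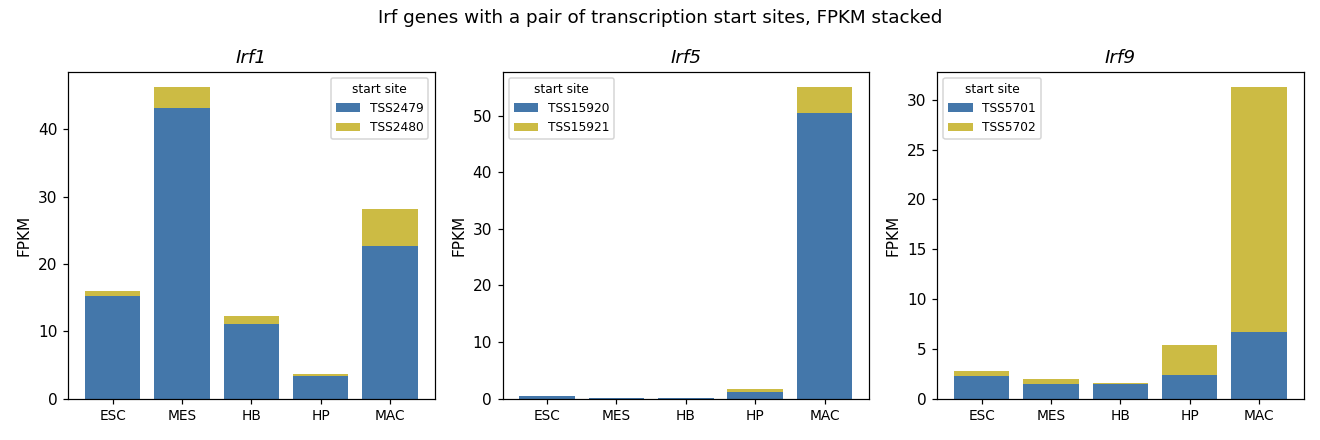
FPKM at each transcription start site of *Irf1*, *Irf5* and *Irf9* (stacked bars, authors' combined values) in the stages. The second site of *Irf9*, TSS5702, made up 9.40% of the gene in HB and 78.7% in MAC.

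The partners and targets of the IRFs were followed in lists of known genes, each with its median difference over the genes with at least 1 FPKM. Among 14 factors that bind or modulate IRFs, 7 were higher and 1 was lower from HP to MAC, with a median of 1.69 over 10 genes. PU.1 (listed as *Sfpi1*) was below 0.4 FPKM up to HB and at 16.7 FPKM in HP and 111 in MAC, so that it left the range below 1 FPKM in the same stage as *Irf8*. *Stat2*, the partner of IRF9, rose from 4.75 to 32.3 FPKM from HP to MAC, while *Ets1* fell from 12.5 to 1.13. Of 16 genes known as targets of IRF8 and PU.1 in phagocytes, 15 were in the stage table, 7 were higher in HP than in HB, and 13 rose from HP to MAC, with none lower and a median of 4.09 over 13 genes. Among them *Csf1r*, the macrophage colony-stimulating factor receptor, went from 2.97 to 233.5 FPKM, *Cybb*, the catalytic subunit of the phagocyte oxidase, from 1.61 to 121, and the lysosomal protein gene *Cd68* from 1.23 to 146. The list does not give the direction in which IRF8 or PU.1 acts on each gene, so that these counts do not measure agreement with *Irf8*. *Csf1r* and *Cd68* are also macrophage markers here.

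The sensing and receptor arms of the pathway were also higher in macrophages. Of 22 measured sensors, adaptors and kinases upstream of IRF3, IRF5 and IRF7, 17 were higher in MAC than in HP and none lower (median 1.56), including *Unc93b1*, which brings nucleic acid-sensing Toll-like receptors to endosomes (4.20 to 236 FPKM), *Tlr7* (0.908 to 46.1) and *Tlr4* (1.84 to 49.1). Of 14 measured interferon receptor and Jak-Stat genes 11 were higher (median 2.31), with *Il10rb* going from 6.27 to 133.9 FPKM, *Ifngr1* from 8.90 to 115 and *Ifngr2* from 7.91 to 99.1, whereas *Ifnlr1* was at 0.0184 and 0.0189 FPKM. These counts stand beside the 33.4% of all genes that were higher at this step. In contrast, none of 11 interferon genes reached 1 FPKM in any stage or MEF library, the highest value being 0.162 FPKM in MES, and *Ifnb1*, *Ifng*, *Ifna1*, *Ifna2* and *Ifnz* stayed below 0.1 FPKM. Of the interferon alpha genes the list held only *Ifna1*, *Ifna2*, *Ifna4* and *Ifna5*. Stage reads were kept only at unique positions, which lowers genes with near-identical copies. Of 10 IRF4 targets 4 were higher in MAC (median 4.48 over 5 genes), among them *Mrc1*, the mannose receptor (0.629 to 279 FPKM), *Cd274* (0.496 to 35.7) and *Il1rn* (0.251 to 26.9). *Irf4* itself was at 0.557 FPKM in MAC, *Mrc1* is also one of the macrophage markers, and which factor acts on these genes here was not tested. The other alternatively activated macrophage genes named by rule, *Retnla* and *Chi3l3*, were at 0.0292 and 0.0558 FPKM in MAC.

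Most interferon-stimulated targets were at their highest in macrophages as well, 23 of 26, whereas 46.8% of 11983 genes were highest there, and 3 targets were highest in MES. Of the 26 genes 24 were higher in MAC than in HP and none lower, with a median of 2.31 beside 0.45 over all genes, and 13 were higher and 1 lower from HB to HP, with a median of 1.28. *Oas1a*, an activator of RNase L, went from 0.639 FPKM in HP to 41.7 in MAC, *Oasl2* from 0.988 to 26.5 and *Ifi44* from 0.675 to 22.0. Their sum over the 26 targets was 86.4, 160.1, 39.4, 113.7 and 758.7 FPKM from ESC to MAC.

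Some targets had a mesoderm peak like *Irf1*. Before the macrophage, 6 of 8 antigen processing targets of IRF1 with at least 1 FPKM had their highest value in MES, as did 6 of 20 interferon-stimulated targets, which was the case for 10.8% of 11318 genes. From ESC to MES 4 of the 11 measured genes of that list were higher and none lower, with a median of 1.26, and from MES to HB 5 were lower and none higher, with a median of -1.50. *Psmb8*, a subunit of the immunoproteasome, was at 2.60, 32.1, 7.64, 1.99 and 80.0 FPKM from ESC to MAC. *Gbp2*, a guanylate-binding protein gene, was at 21.8, 53.5, 6.43, 2.22 and 8.60 FPKM. Of the other interferon-stimulated targets 1 was highest in ESC and 13 in HP. Beyond the genes named by rule, *Psmb10* (69.5 FPKM in MES against 13.2 in ESC and 28.3 in HB), *Irgm1* (28.6 against 8.99 and 5.82) and *Gbp3* (14.4 against 1.91 and 2.18) were chosen after their values were seen. They are already in the counts of genes highest in MES, so that their peak there is no further result. *B2m*, the light chain of class I molecules, moved less, from 22.1 to 31.8 to 21.5 FPKM, and *Nlrc5* and *Casp1* stayed below 0.3 FPKM in these 3 stages. Of the interferon-stimulated targets, 6 were higher and none lower in MES than in ESC (median 0.95), and 6 were lower and none higher in HB than in MES (median -0.91). *Gbp2* is counted in both lists. From HP to MAC 10 of the 11 antigen processing genes were higher and none lower (median 3.16), with *B2m* going from 45.3 to 1375 FPKM and *Casp1*, the inflammasome protease gene, from 0.498 to 39.0. Fibroblast markers, which could show carried-over feeder cells, did not move together over ESC, MES and HB: *Pdgfra*, which mesoderm also expresses, was at 0.372, 6.30 and 16.7 FPKM, *Col1a1* at 0.524, 3.09 and 3.58, *Col1a2* at 0.820, 1.29 and 0.897 and *Thy1* at 2.89, 0.655 and 0.931. In HP *Col1a1* and *Col1a2* were at 13.1 and 17.6 FPKM, their highest values over the stages, but *Pdgfra* was at 0.494 and *Thy1* at 0.00523. The part of carried-over cells in the values of any stage was not tested.

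In MEFs the family had another composition. In untreated MEFs *Irf9*, *Irf3*, *Irf2*, *Irf1* and *Irf7* lay between 12.5 and 26.8 FPKM on both days, whereas *Irf5* and *Irf8* stayed below 1 FPKM and *Irf4* below 0.2. At day 12 the 8 genes summed to 96.4 (uFIB), 80.2 (SL), 78.5 (SFGL) and 98.1 FPKM (the library labelled FGL), and to 104.1, 61.5, 61.9 and 109.1 FPKM in the same order at day 21. The sum was thus lower in SL and SFGL on both days. *Irf3* was the highest member in all 4 SL and SFGL libraries and in none of the other 4.

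**Figure D4:**
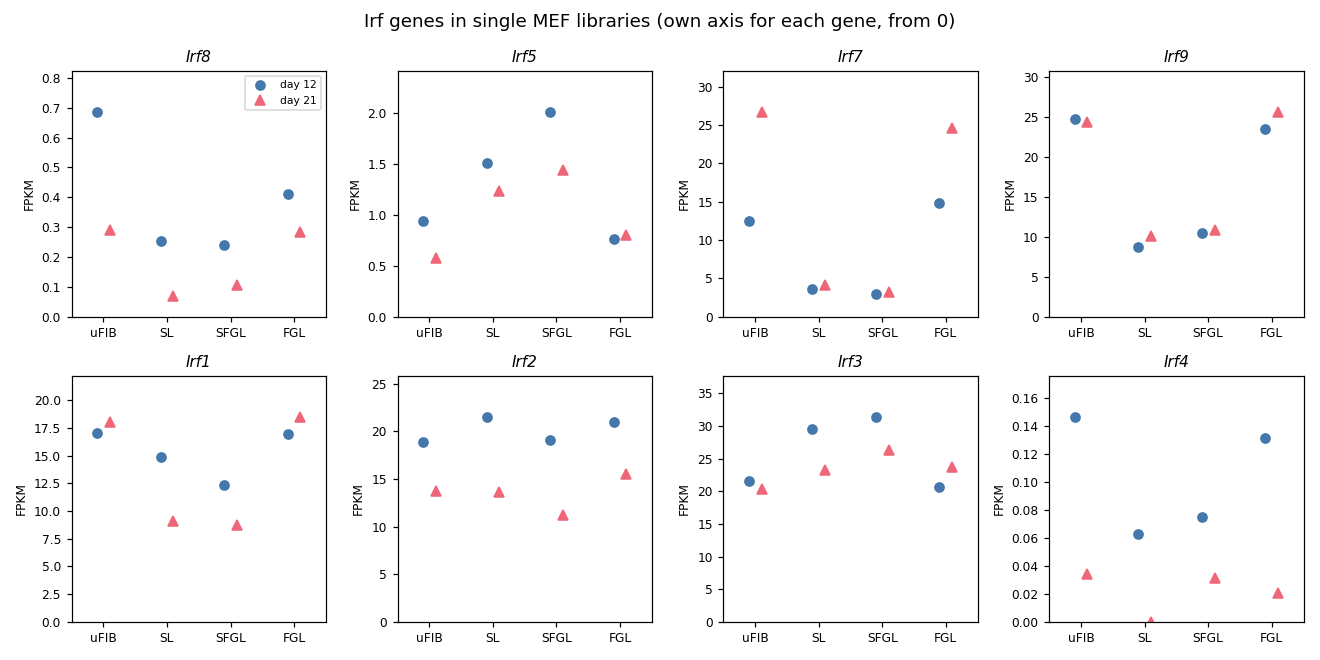
FPKM of each Irf gene in the 8 MEF libraries (circles, day 12; triangles, day 21; own vertical axis from 0), 1 library per condition and day. *Irf7* and *Irf9* are lower in SL and SFGL than in uFIB and FGL on both days.

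*Irf7* showed the largest differences between MEF libraries. At day 12 it was at 12.5, 3.59, 2.98 and 14.8 FPKM, in the order uFIB, SL, SFGL and library labelled FGL, and at day 21 at 26.8, 4.13, 3.21 and 24.6 FPKM. All 4 SL and SFGL libraries lay below all uFIB and FGL libraries, with no overlap, as they did for 31% of 12807 genes, while they lay above for 29.1%. Of the 6 members with at least 1 FPKM, 3 lay below in this way (*Irf1*, *Irf7* and *Irf9*) and 1 above (*Irf5*), which is near these shares. *Irf9* was at 24.7, 8.77, 10.5 and 23.5 FPKM at day 12 and at 24.4, 10.1, 10.8 and 25.7 FPKM at day 21. The untreated libraries of *Irf9* differed by -0.02 between the days, while *Irf7* was 1.04 higher in uFIB at day 21 than at day 12, a difference between days for which 3.14% of 11737 genes were called, 1.87% higher and 1.27% lower, and *Irf7* was the only member called.

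In SL at day 12, 27.6% of 12332 genes were called, 14.2% higher and 13.5% lower than in uFIB. Of the 6 members tested 2, *Irf7* (-1.55) and *Irf9* (-1.40), were called lower. In SL at day 21, where 24.2% of 12371 genes were called, 11.9% higher and 12.3% lower, the called members were *Irf7* (-2.43) and *Irf9* (-1.19), both lower. SFGL was measured against the same uFIB library of each day. Of 12326 genes 31.7% were called in SFGL at day 12, 14.7% higher and 17% lower, and *Irf7* (-1.76) and *Irf9* (-1.17) were called lower. At day 21 the shares of 12415 genes were 29.8%, 14% and 15.9%, and the differences were -2.72 and -1.10. At day 21 only 206 genes of those tested lay lower than *Irf7* in SL, and 206 in SFGL. *Irf9* was less extreme, with 1716 genes lower in SFGL at day 21. In each of these comparisons 6 members had at least 1 FPKM and 2 were called lower, beside 12.3% to 17% of all genes. With so few members the count does not set the family apart.

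In the libraries labelled FGL, where 3.26% of 11905 genes were called at day 12 (2.96% higher and 0.302% lower than in uFIB) and 0.855% of 11692 genes at day 21 (0.479% and 0.376%), no member was called. The differences of *Irf7* were 0.23 and -0.11 there, and those of *Irf9* -0.07 and 0.07. With 1 library per condition and day none of these single differences has a replicate check.

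Taking both days together, the treatments were compared by limma on log2(FPKM + 1) with treatment and day as terms, a fit chosen after the data were seen that left 3 residual degrees of freedom. It treats the libraries of day 12 and day 21 as samples of a treatment. The labels do not say whether these came from separate cultures. With 1 library per treatment and day, the residual holds only how far the treatment differences changed between the days. The p-values measure that spread and not one between replicates. For *Irf7* in SL the difference was -1.55 at day 12 and -2.43 at day 21, and the fit averages over the days. In SL 25% of 12807 genes were higher and 26.6% lower at an adjusted p under 0.05, and of the 6 members tested 2 were lower and none higher: *Irf7* by limma with a difference of -1.99 ± 0.25 (SE, adjusted p = 0.0026) and *Irf9* with -1.29 ± 0.10 (SE, adjusted p = 0.0011). In SFGL, where 27.4% of the genes were higher and 30.6% lower, *Irf7* (-2.24 ± 0.25, limma adjusted p = 0.0014) and *Irf9* (-1.14 ± 0.10, adjusted p = 0.00073) were lower, as was *Irf1* (-0.70 ± 0.22, adjusted p = 0.038), and *Irf5* (0.63 ± 0.15, adjusted p = 0.017) and *Irf3* (0.44 ± 0.15, adjusted p = 0.048) were higher. The calls of *Irf1* and *Irf3* in SFGL were lost without the day term and those of *Irf1*, *Irf3* and *Irf5* when either uFIB or either SFGL library was left out, and that of *Irf3* also without either SL library. In SL *Irf1* (-0.55, limma adjusted p = 0.085), *Irf5* (0.44, adjusted p = 0.059) and *Irf3* (0.31, adjusted p = 0.13) did not pass, and whether SL and SFGL differ was not tested. In the libraries labelled FGL no member was called by limma, with 0.0156% of all genes higher and 0% lower, beside 182 genes higher and 299 lower at an unadjusted p under 0.05. With such shares of all genes called in SL and SFGL, a passed test by itself does not set a member apart.

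In the same order *Irf1* was at 17.0, 14.9, 12.3 and 17.0 FPKM at day 12 and at 18.0, 9.12, 8.78 and 18.5 FPKM at day 21. Its differences at day 21 were -0.91 in SL and -0.96 in SFGL, just short of the limit, and at day 12 -0.18 and -0.43. *Irf3* was higher in SL and SFGL than in uFIB of the same day, with differences of at most 0.52. It was at 21.5, 29.6, 31.4 and 20.6 FPKM at day 12 and 20.3, 23.2, 26.3 and 23.7 FPKM at day 21, when the library labelled FGL lay above SL. *Irf2* was at 18.8, 21.5, 19.1 and 20.9 FPKM at day 12 and at 13.7, 13.6, 11.2 and 15.5 FPKM at day 21, so that it varied more between the days than between treatments. *Irf5* was at 0.935, 1.51, 2.01 and 0.764 FPKM at day 12 and at 0.577, 1.24, 1.44 and 0.796 FPKM at day 21. It was the only member besides *Irf3* whose 4 SL and SFGL values were all above the uFIB value of their day and it stayed within the limit, with differences between 0.37 and 0.64.

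*Irf8* did not follow its partner in MEFs. PU.1 (*Sfpi1*) was at 0.0485, 156, 171 and 16.9 FPKM at day 12 (uFIB, SL, SFGL and FGL), and at 0.712, 81.6, 102 and 0.0825 FPKM at day 21. *Irf8* was at 0.687, 0.253, 0.238 and 0.410 FPKM at day 12 and at 0.291, 0.0686, 0.107 and 0.284 FPKM at day 21, so that it stayed below 1 FPKM throughout and was lowest in SL and SFGL on each day. *Irf4* was at 0.146 FPKM or less in all MEF libraries. Of the 16 phagocyte targets of IRF8 and PU.1, 7 were higher on both days in SL, including *Cybb*, *Ncf1*, *Ncf4*, *Ctsc*, *Cd68* and *Itgal*, and the same 7 in SFGL, with medians in SL of 2.55 at day 12 and 1.80 at day 21. Over all genes 14.2% were called higher in SL at day 12 and 11.9% at day 21, and 14.7% and 14% in SFGL. The share of all genes called on both days was not computed. In SL at day 12 *Cybb* was at 105 FPKM against 0.168 in uFIB, *Ncf1* at 271 against 0.174 and *Ncf4* at 122 against 0, whereas *Csf1r* was at 0.884 against 0.223. In the libraries labelled FGL 5 of these targets were higher at day 12, with a median of 0.48, and 1 was lower at day 21. The macrophage markers, which share *Cd68* and *Csf1r* with these targets, also differed among themselves in SL at day 12. *Cd68*, already counted among the 7 targets, was at 26.2 against 2.93 FPKM in uFIB, but *Fcgr1*, the high-affinity IgG receptor, at only 0.146 against 0.0229.

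Many interferon-stimulated targets were lower in SL and SFGL alongside *Irf7* and *Irf9*, but few of the receptors and sensors. Of 26 interferon-stimulated targets, 17 were called lower in SL on both days and 1, *Isg20*, higher, and the same 17 and *Isg20* in SFGL. The medians in SL were -1.69 at day 12 and -1.58 at day 21, beside -0.03 and -0.04 over all genes. Over all genes 13.5% were called lower in SL at day 12 and 12.3% at day 21, and 17% and 15.9% in SFGL. The share of all genes called on both days was not computed. *Ifit1*, which binds viral RNA, was at 24.4 FPKM in uFIB and 1.92 in SL at day 12 and at 50.4 and 5.43 FPKM at day 21. *Ifit3* was at 18.8 and 1.07 FPKM and then at 39.5 and 1.76, and *Rtp4* at 17.7 and 2.04 and then at 35.8 and 2.96. Over the 26 targets the sums at day 12 were 406.1 (uFIB), 128.3 (SL), 140.7 (SFGL) and 408.3 FPKM (FGL), and those at day 21 were 686.7, 191.2, 166.4 and 667.5 FPKM. In the libraries labelled FGL 1 target was higher at day 12 and none was called at day 21.

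**Figure D5:**
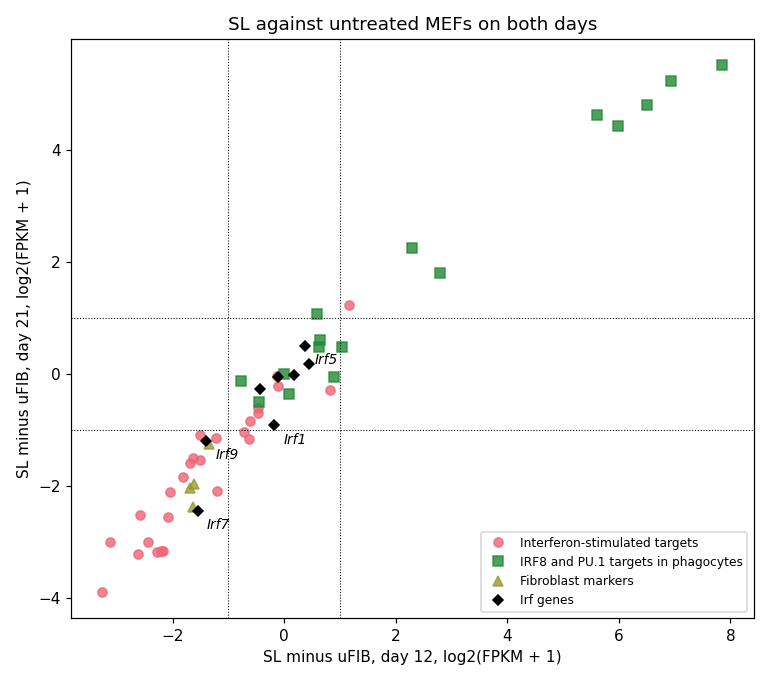
Difference of SL from uFIB on log2(FPKM + 1) at day 12 (horizontal) and day 21 (vertical) for the Irf genes (diamonds), interferon-stimulated targets (circles), phagocyte targets of IRF8 and PU.1 (squares) and fibroblast markers (triangles), with dotted lines at the limit of 1. *Irf7* and *Irf9* lie at the lower left with 17 of the 26 interferon-stimulated targets and the 4 fibroblast markers.

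*Stat2*, the partner of IRF9, was lower in SL and SFGL than in uFIB. It was at 34.8, 14.7 and 14.7 FPKM at day 12 (uFIB, SL and SFGL) and at 44.1, 15.3 and 15.3 FPKM at day 21. Its difference was called on both days in SL and SFGL. *Usp18*, the feedback inhibitor of the type I receptor, went from 10.6 to 1.14 FPKM in SL at day 12 and from 18.9 to 1.49 at day 21. *Socs1*, the inhibitor of Jak kinases, moved the other way, from 3.24 to 17.1 FPKM at day 12 and from 5.80 to 9.37 at day 21. Among the 15 receptor and Jak-Stat genes 3 were higher and 2 lower in SL at day 12, and none was higher and 3 were lower at day 21, with medians of -0.24 and -0.38. *Ifngr1* went from 30.9 to 76.9 FPKM at day 12 and from 31.1 to 62.7 at day 21.

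Among the 24 sensors and kinases 3 were higher and 2 lower in SL at day 12 and none higher and 4 lower at day 21, with medians of 0.25 and 0.05. The genes lower on both days were *Tlr3*, the endosomal receptor of double-stranded RNA (4.09 to 0.821 and 3.95 to 0.697 FPKM), and *Ddx58*, the cytosolic RNA sensor RIG-I (21.1 to 8.97 and 26.7 to 10.2 FPKM). *Dhx58*, a relative of RIG-I, was at 6.55 and 3.40 FPKM at day 12 and at 10.6 and 2.85 FPKM at day 21. Of the 12 antigen processing targets of IRF1, 1 was higher and 2 were lower at day 12 and 6 were lower at day 21 (medians -0.24 and -1.30), with *B2m* at 1586 and 706 FPKM and then at 2725 and 823, *Gbp2* at 13.1 and 2.05 and then at 24.7 and 1.88, and *Nlrc5*, an activator of class I genes, at 1.57 and 0.497 and then at 4.08 and 0.906. Of 14 partner factors 5 were higher and 1 lower at day 12 and 3 higher and 2 lower at day 21 (medians 0.64 and 0.72), with *Ikzf1* going from 0.0330 to 39.1 FPKM and *Batf* from 0 to 3.71 FPKM at day 12. Of 10 IRF4 targets 3 were higher at day 12 and 2 at day 21 and none lower (medians 1.37 and 1.26), *Chi3l3* going from 0.0410 to 35.3 FPKM and *Cd274* from 1.67 to 5.43 FPKM at day 12.

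Fibroblast markers moved with these differences. All 4 were called lower in SL and in SFGL on both days, beside 12.3% to 17% of all genes in the single comparisons. *Col1a1* was at 2409 FPKM in uFIB and 783.6 in SL at day 12 and at 1609 and 412.4 FPKM at day 21, and the 4 markers summed to 4455 (uFIB), 1441 (SL), 1225 (SFGL) and 3651 FPKM (FGL) at day 12 and to 2956, 769.4, 552.3 and 2791 FPKM at day 21. On the log2 scale the differences of *Col1a1* in SL were -1.62 and -1.96, beside -1.55 and -2.43 for *Irf7* and -1.40 and -1.19 for *Irf9*. None of the 4 markers was near 0 in any MEF library. At the same time 3 of 4 blood progenitor and 3 of 6 macrophage markers were called higher on both days in SL, the 6 macrophage markers summing to 9.67 FPKM in uFIB and 83.4 in SL at day 12 and to 7.46 and 40.7 FPKM at day 21. Over all genes 14.2% were called higher in SL at day 12 and 11.9% at day 21. The part of the cell mixture in the lower *Irf7* and *Irf9* was not tested.

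To find the genes most like each member, Pearson's r on log2(FPKM + 1) was taken over the 5 stages and, separately, over the 8 MEF libraries for 10993 genes, which were ranked by the smaller of the 2 values. The labels do not say whether the libraries of a treatment came from separate cultures, so that these values describe the tables only. For *Irf7* the nearest genes were *I830012O16Rik* (0.9995 over the stages and 0.995 over the libraries), *Rtp4* (0.995 and 0.995) and *B2m* (0.994 and 0.993), and for *Irf9* *Xaf1* (0.985 and 0.980), *Gnb5* (0.992 and 0.979) and *Stat2* (0.996 and 0.976). *Irf9* was at place 129 for *Irf7* (0.987 and 0.950). *Irf5* had the course of *Irf7* in the stages (0.998) and the opposite one in the MEF libraries (-0.93), and its nearest genes were *Il3ra*, *Aup1* and *Haao*, with smaller values of 0.971, 0.966 and 0.965. *Irf5* stood at place 19 for *Irf3* (0.94 and 0.92), behind *Tox4*, *Tmub1* and *Grb2*. The nearest genes of *Irf1* were *Lhpp*, *Efr3a* and *Deptor* (0.916, 0.912 and 0.895) and those of *Irf2* were *Zxdc*, *Jdp2* and *Dpp8* (0.969, 0.952 and 0.944). *Irf4* and *Irf8* did not reach 1 FPKM in the MEFs and were not compared.

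Several members overlap another gene in GENCODE on GRCm38, and whether the strand of fragments was used in counting is not given in the sources used here. *Irf3* overlaps *Bcl2l12*, *Irf5* overlaps *Tnpo3* and *Irf7* overlaps *Phrf1*, each on the opposite strand, and *Irf9* overlaps *Rnf31* on the same strand. *Irf1*, *Irf2* and *Irf8* overlap predicted genes. *Phrf1* was at 15.4 FPKM in uFIB and 17.2 in SL at day 12 and at 13.3 and 17.0 at day 21, and *Rnf31* was at 10.4 and 10.4 and then at 8.49 and 9.28 FPKM. From HP to MAC *Rnf31* rose from 5.22 to 10.3 FPKM, the step at which *Irf9* also rose. At that step *Tnpo3* went from 30.3 to 29.5 FPKM, *Phrf1* from 15.8 to 12.6 and *Bcl2l12* from 4.10 to 1.79. The part of these neighbours in the values of the members was not tested.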

How the data were processed

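RNA-seq was carried out on 18 samples of mouse cells, 10 from the 5 stages and 8 from MEFs. The deposited unit is FPKM, for the stages with both samples of a stage combined by the authors. Per the supplemental procedures, stage reads were mapped to mm10 (GRCm38) with SHRiMP, filtered for unique positions, freed of duplicates by Picard and quantified by Cufflinks. For the MEFs the submitters' processing notes name TopHat and Cufflinks, with no versions. Unique alignment lowers genes with near-identical copies, and removal of duplicates limits high values. Samples were grouped by their labels. The stage table also held 1 column, HE, that was not used.

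The FPKM of the transcription start sites was summed per gene. Differences were taken on log2(FPKM + 1), and a gene was called at a difference of at least 1 in size with at least 1 FPKM in 1 of the compared samples. The stage values were not tested, since the table holds 1 value per stage. For the MEFs limma 3.58.1 under R 4.3.3, with a trend on mean expression and Benjamini-Hochberg adjustment, was fitted over the 8 libraries with treatment and day as terms, for genes with at least 1 FPKM in 1 library; this fit was chosen after the data were seen. The deposited stage table gives no depth. In the MEF table the depth relative to uFIB at day 12, from the steps of values under 0.3 FPKM, lay between 0.586 and 1.57, but only 15.1% to 19.2% of low genes shared the step, so that whole reads were not recovered. Genes named were all members, from each list the 3 genes with the largest difference from HP to MAC and the 3 with the largest mean difference of SL from uFIB over both days, the 3 genes most like each member, and the cell type markers. The members, the lists and this rule were chosen with earlier results of these data known. The calls and the limma fit were run on simulated data with planted changes larger than the limit for a call. This is a check of the code and not of the results. Alternatives were pseudocounts of 0.1 and 0.001, upper quartile scaling, a minimum of 5 FPKM, the highest start site alone, and a reference averaged over the uFIB libraries of both days. Promoter windows are from RefSeq on GRCm38.p6, and gene positions, counted from 1, are those of the authors' table. The software was matplotlib 3.10.9, pandas 2.3.3 and NumPy 2.4.6 under Python 3.11.15. Values of some genes in the lists are not reported here.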

Additional observations from a re-analysis of the deposited data

How the results depend on the processing

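Of 54 recalculated counts of called members, 51 stayed within 1.5 times the count given, among them all 11 under upper quartile scaling. From HB to HP the count of 6 fell to 2 members, 1 higher and 1 lower, when at least 5 FPKM was required, since the other 4 members lay below this level. In SFGL against uFIB at day 21 the count of 2 became 4 with a pseudocount of 0.1 and 4 with 0.001, in each case 1 higher and 3 lower, as *Irf1* (-1.03 and -1.04) and *Irf5* (1.19 and 1.32) passed the limit. Of 392 recalculated differences of single members 383 kept their call or lack of one and no called difference changed direction. Of these, 23 passed 1 in size with a smaller pseudocount (6 with 0.1 and 17 with 0.001) and stayed uncalled only because the gene was below 1 FPKM. *Irf2* from HP to MAC (0.67) lost its call with upper quartile scaling and *Irf5* from HB to HP (0.85) with the highest start site alone. *Irf5* also reached the limit in SFGL at day 12 (1.03 and 1.10 with the smaller pseudocounts) and in SL at day 21 (1.10 with 0.001). Of the 3 genes most like *Irf5* and *Irf7*, 1 each was kept with a pseudocount of 0.1.

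In the limma fit of the MEFs the day term pairs treatments by day, a pairing taken from the day in the labels. Without this block the members called in SFGL fell from 5 to 3, and SL kept 2 and FGL 0. Leaving out 1 library at a time gave between 2 and 5 called members in SFGL, 2 in SL and 0 in FGL, and *Irf7* and *Irf9* stayed called in SL and SFGL each time. Without the FGL libraries the counts were 5 and 2. For the stages no paired analysis was possible because the table holds 1 value per stage, and no replicate was left out. Low FPKM values, such as those of *Irf4*, *Irf7* and *Irf8* before HP, rest on an unknown number of fragments, and ratios between them are uncertain. Treatments of a day share 1 uFIB library, so that their differences are not independent.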
